A study of Mus musculus with 8 samples.

Results

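The clock output factors described here were 9 genes chosen by symbol: the PAR bZIP genes *Dbp*, *Tef* and *Hlf*, their antagonist *Nfil3*, the repressors *Bhlhe40*, *Bhlhe41* and *Ciart*, and the effector genes *Usp2* and *Wee1*. All 9 were present among the 16540 gene symbols of the liver count table, and all 9 were among the 12307 genes tested. Livers came from male *Apoe*-/- mice, which lack apolipoprotein E and develop atherosclerosis on a cholesterol-rich diet. Every mouse in both groups carried this knockout and was fed a high cholesterol diet, so the comparison has no wild-type or chow-fed arm. In the ISOGK group, 4 mice received isoginkgetin (ISOGK), a biflavonoid of *Ginkgo biloba*, by intraperitoneal injection at 20 mg/kg per day for 8 weeks, and in the vehicle group 4 mice received the solvent, DMSO. The age of these mice, the hour at which each liver was taken and any fasting beforehand are not given in the sources used here.

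In the liver clock, the activator pair BMAL1 (gene *Arntl*) and CLOCK binds E-boxes in DNA and drives both its own repressors and a layer of output transcription factors. The PAR bZIP proteins DBP, TEF and HLF activate genes through an element called the D-box, and NFIL3 (also known as E4BP4) represses through the same element, with its own transcription controlled by ROR and REV-ERB receptors. In mouse liver the *Dbp* transcript is known for a daily rhythm of very large amplitude, and the PAR bZIP factors are known as regulators of detoxification genes.

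One library was sequenced per mouse, with between 19605286 and 24461854 counts in the vehicle group and between 17457106 and 21626399 in the ISOGK group. *Apoe* had 3252 to 6489 counts per library, so the knockout is known from the labels and not from the counts. Hepatocyte markers were abundant in every library, and the summed level of the 6 listed was 142186 to 154393 CPM (counts scaled to library size, with TMM normalization) with vehicle and 130317 to 167619 with ISOGK. Skeletal muscle markers (10 listed) peaked in vehicle-treated mouse 4 without exception, at 70.9 CPM in sum against at most 0.629 in any other mouse. The summed neutrophil markers were 3.31 to 5.61 CPM with vehicle and 6.92 to 16.4 with ISOGK, with 1 of 3 tested markers higher, and the part of other cells in the results was not tested. In whole liver, fewer cells of a type and less RNA per cell cannot be told apart.

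ISOGK-treated mouse 1 stood apart from the other 3 treated mice for several of these genes. For 8 of 9 members, the other 3 ISOGK-treated mice were all higher or all lower than every vehicle-treated mouse, and in 4 of these 8 (*Dbp*, *Nfil3*, *Bhlhe41* and *Ciart*) mouse 1 did not. The same happened in 29.2% of such genes among all 12307 tested (775 of 2656). Over all genes the same share was 15.4%, 38.3% and 20.1% when mouse 2, 3 or 4 was set aside instead. For the members this gave 0 of 4 each time, which had to be so, because mice 2, 3 and 4 were all clear in those 4 members. That count therefore does not measure how unusual mouse 1 was. The result of each member is given with and without ISOGK-treated mouse 1. Since this mouse was singled out on these same genes, the values without it are a description and not independent evidence.

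Of the 9 members, *Hlf*, *Bhlhe40* and *Usp2* fell in the livers of ISOGK-treated mice and none rose (edgeR quasi-likelihood test, adjusted p under 0.05). These 3 calls compare with 3.44% of all tested genes called lower, 4.11% called higher and 7.55% called in either direction. The median log2 fold change of the 9 members, ISOGK minus vehicle, was -1.29, while that of all tested genes was 0.00176, and 8 of 9 members had a negative value. *Tef* joined these 3 genes among the members whose 4 ISOGK values did not overlap the 4 vehicle values (4 of 9, with 15.3% of all genes). Without ISOGK-treated mouse 1, 6 members were called lower (*Dbp*, *Tef*, *Hlf*, *Bhlhe40*, *Ciart* and *Usp2*) and *Nfil3* was called higher, where 3.83% of all genes were called lower and 4.1% higher. With vehicle-treated mouse 4 left out as well, those 6 stayed lower and *Nfil3* was no longer called (2.55% of all genes lower). With all 8 mice, DESeq2 called 5 members lower, adding *Tef* and *Ciart* (5.44% of all genes), and limma-voom called 6, adding *Dbp* too (3.34%). If an absolute log2 fold change over 1 was also required, *Bhlhe40* and *Usp2* remained in edgeR, against 0.626% of all genes. *Wee1* and *Bhlhe41* were not called in any fit.

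**Figure D1:**
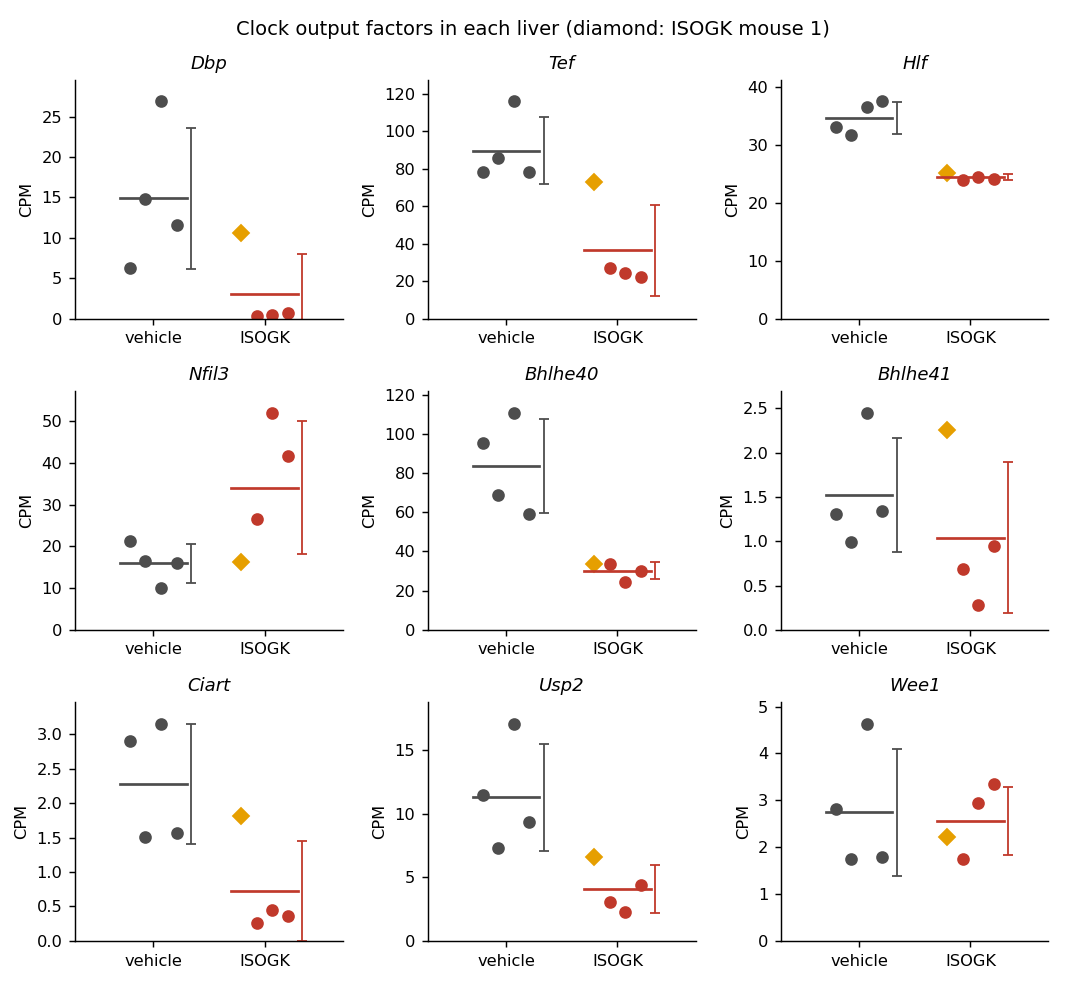
Level of each clock output factor in each liver, in CPM with TMM normalization on linear axes from 0. Each point is a mouse, horizontal lines are group means and bars are SDs (n = 4 per group, bars that pass 0 are not drawn below it); the diamond is ISOGK-treated mouse 1, which lies among the vehicle-treated mice for *Dbp*, *Nfil3*, *Bhlhe41* and *Ciart*, and below all 4 of them for *Tef*, *Hlf*, *Bhlhe40* and *Usp2*.

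*Dbp* encodes D-box binding protein, the founding PAR bZIP factor, and lies on chromosome 7 from 45705088 to 45710203 (GRCm38, plus strand). Its levels were 6.22, 14.8, 26.9 and 11.6 CPM in vehicle-treated mice 1 to 4 and 10.5, 0.369, 0.396 and 0.681 CPM in ISOGK-treated mice 1 to 4. ISOGK-treated mice 2, 3 and 4 thus lay far below every vehicle-treated mouse, on 7, 7 and 13 counts, while mouse 1, on 215 counts, lay above vehicle-treated mouse 1. The group means were 14.9 ± 8.75 and 3.00 ± 5.03 CPM (SD, n = 4), and the difference was -2.28 on the log2 scale (standard error 1.08, 95% interval -4.86 to 0.30, edgeR adjusted p = 0.256). In a two-sided exact permutation test on log2 CPM, p was 0.0571, where 0.0286 is the smallest value that 4 mice against 4 allow. Without ISOGK-treated mouse 1, *Dbp* was 30.5-fold lower in the remaining 3 treated mice (log2 fold change -4.93, standard error 0.66, edgeR adjusted p = 0.00588). Over all tested genes, *Dbp* had the tenth widest spread among the 4 ISOGK-treated mice, with an SD of log2 CPM of 2.15 where the median gene had 0.226. Of the exonic bases of *Dbp*, 18% (539 bases) also lie in exons of *Sphk2* on the opposite strand, and whether reads were assigned by strand is not given in the sources used here. *Sphk2* itself had 26.7 to 43.2 CPM with vehicle and 18.1 to 45.2 with ISOGK (log2 fold change -0.18, edgeR adjusted p = 0.752).

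*Tef* encodes thyrotroph embryonic factor and lies on chromosome 15 from 81802421 to 81826863 (GRCm38, plus strand). It was at 78.3, 85.9, 116 and 78.4 CPM in the vehicle-treated mice and at 72.8, 27.0, 24.1 and 22.3 CPM in the ISOGK-treated mice. The groups did not overlap, but ISOGK-treated mouse 1 lay just under the vehicle range and the other 3 lay far under it. The log2 fold change was -1.29 (standard error 0.41, 95% interval -2.24 to -0.34, edgeR adjusted p = 0.106), with p = 0.0286 in the exact permutation test. Without ISOGK-treated mouse 1 it was -1.87 (standard error 0.16, edgeR adjusted p = 0.000116). DESeq2 and limma-voom placed *Tef* past the threshold with all 8 mice, at adjusted p = 0.0324 and 0.0202.

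*Hlf* encodes hepatic leukemia factor, and for this gene ISOGK-treated mouse 1 did not stand apart. It lies on chromosome 11 from 90336536 to 90390895 (GRCm38, minus strand), and was at 33.1, 31.7, 36.5 and 37.5 CPM with vehicle and at 25.2, 23.9, 24.4 and 24.2 CPM with ISOGK. The 4 treated mice were close together, with an SD of log2 CPM of 0.0318, at percentile 0.528 of all tested genes, and all lay below the lowest vehicle-treated mouse. *Hlf* fell from 34.7 ± 2.75 to 24.4 ± 0.543 CPM (SD, n = 4), a log2 fold change of -0.51 with a standard error of 0.09 and a 95% interval from -0.70 to -0.31 (edgeR adjusted p = 0.00607). The call was made in 17 of 17 alternative fits (other tests, scalings and filters, a replicate block, and mice left out), and the value without ISOGK-treated mouse 1 was -0.52 (edgeR adjusted p = 0.0104).

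*Nfil3*, the D-box repressor, lies on chromosome 13 from 52967209 to 52981073 (GRCm38, minus strand). Its levels were 21.3, 16.6, 9.97 and 16.1 CPM with vehicle and 16.2, 26.5, 52.1 and 41.6 CPM with ISOGK. ISOGK-treated mice 2, 3 and 4 were above every vehicle-treated mouse, and mouse 1 was in the middle of them. The log2 fold change of 1.09 (standard error 0.38, 95% interval 0.22 to 1.97) had an edgeR adjusted p of 0.130. It was 1.33 without ISOGK-treated mouse 1 (edgeR adjusted p = 0.0293) and 1.33 when vehicle-treated mouse 4 was left out as well (edgeR adjusted p = 0.0673), so the call on *Nfil3* was lost again.

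To compare levels between genes, counts were divided by the exonic length of each gene and scaled to the same total in every mouse, a per-length level. The 3 PAR bZIP genes summed to 39.9, 49.6, 74.9 and 48.4 on this scale in the vehicle-treated mice and to 35.2, 15.6, 16.5 and 13.2 in the ISOGK-treated mice. *Nfil3* stood at 24.7, 19.7, 12.6 and 19.8 against 17.0, 28.6, 62.1 and 40.8. The PAR bZIP transcripts thus outnumbered those of *Nfil3* by a ratio of 1.62, 2.52, 5.93 and 2.44 in the vehicle-treated mice and of 2.07 in ISOGK-treated mouse 1. In ISOGK-treated mice 2, 3 and 4 this ratio was 0.545, 0.266 and 0.325, below 1 in each. The make-up of the sum differed too: *Hlf* gave 18.7% to 29.1% of it in the vehicle-treated mice and 22.8% in ISOGK-treated mouse 1, but 50.2%, 53.3% and 54.2% in the others. The share of *Dbp* was 12.2% to 30.8% with vehicle, 21.3% in ISOGK-treated mouse 1 and 1.73%, 1.93% and 3.41% in mice 2, 3 and 4. These ratios follow from the levels above and were not tested.

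**Figure D2:**
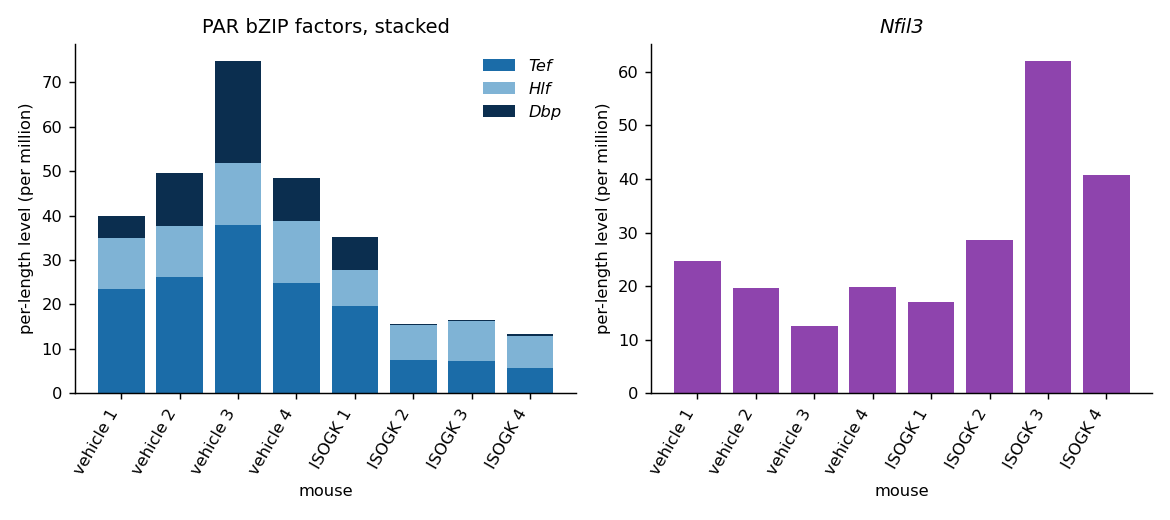
Per-length levels (counts per exonic kilobase, scaled to the same total in every mouse) in each mouse, with *Tef*, *Hlf* and *Dbp* stacked on the left and *Nfil3* on the right. Bars start at 0 and each bar is a single liver; the stacked sum is 39.9 to 74.9 in the vehicle-treated mice, 35.2 in ISOGK-treated mouse 1 and 13.2 to 16.5 in the other 3.

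Among the repressors, *Bhlhe40* (also called DEC1) fell, with each treated mouse below all vehicle-treated mice. BHLHE40 and BHLHE41 bind E-boxes and hold back transcription driven by BMAL1 and CLOCK. *Bhlhe40* lies on chromosome 6 from 108660629 to 108666925 (GRCm38, plus strand), and its levels were 95.5, 68.8, 111 and 59.3 CPM with vehicle against 33.4, 33.5, 24.4 and 29.8 CPM with ISOGK. No treated mouse, mouse 1 included, reached the lowest vehicle-treated mouse. The fall from 83.6 ± 23.8 to 30.3 ± 4.24 CPM (SD, n = 4) amounted to -1.47 on the log2 scale (standard error 0.19, 95% interval -1.89 to -1.04, edgeR adjusted p = 0.00221). It was called in 17 of 17 alternative fits and measured -1.52 without ISOGK-treated mouse 1 (edgeR adjusted p = 0.00437).

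*Bhlhe41* (DEC2), on the same chromosome from 145858243 to 145865558 (GRCm38, minus strand), was expressed at a low level and was not called. It had 26, 25, 63 and 30 counts with vehicle and 46, 13, 5 and 18 with ISOGK, or 0.989 to 2.45 CPM and 0.283 to 2.26 CPM. ISOGK-treated mouse 1 lay close to the highest vehicle-treated mouse and the other 3 lay below the vehicle range. Its log2 fold change was -0.53 (95% interval -1.63 to 0.58, edgeR adjusted p = 0.566), or -1.24 without ISOGK-treated mouse 1 (edgeR adjusted p = 0.108). Of its exonic bases, 19.1% are shared with an annotated gene on the opposite strand.

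*Ciart* encodes CHRONO, a repressor of the BMAL1 and CLOCK pair, and lies on chromosome 3 from 95878503 to 95882251 (GRCm38, minus strand). It had 58, 38, 81 and 35 counts with vehicle and 37, 5, 8 and 7 counts with ISOGK, or 2.91, 1.503, 3.15 and 1.56 CPM against 1.81, 0.264, 0.452 and 0.367 CPM. As with *Dbp*, only ISOGK-treated mouse 1 lay inside the vehicle range. The log2 fold change was -1.62 (standard error 0.53, 95% interval -2.80 to -0.44, edgeR adjusted p = 0.0957). Without that mouse it was -2.65 (edgeR adjusted p = 0.00404), and with all 8 mice DESeq2 and limma-voom gave adjusted p = 0.0225 and 0.0480.

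*Usp2*, a deubiquitinating enzyme whose liver transcript is under clock control, fell with ISOGK. It lies on chromosome 9 from 44067021 to 44095627 (GRCm38, plus strand), and its levels were 11.5, 7.32, 17.1 and 9.38 CPM with vehicle and 6.62, 3.06, 2.26 and 4.40 CPM with ISOGK. ISOGK-treated mouse 1 was the highest of the treated mice and still under the lowest vehicle-treated mouse. The log2 fold change was -1.46 (standard error 0.35, 95% interval -2.25 to -0.67, edgeR adjusted p = 0.0388). This call was close to the threshold and was lost in 8 of 17 alternative fits. Over all 17 fits, kept or lost, adjusted p ranged from 0.000190 (DESeq2) to 0.101. With mice left out singly, 6 of 8 fits no longer made it, those without vehicle-treated mouse 1, 3 or 4 (edgeR adjusted p = 0.0865, 0.0709 and 0.0648) and those without ISOGK-treated mouse 2, 3 or 4 (0.101, 0.0549 and 0.0969). It stood at -1.80 (edgeR adjusted p = 0.0104) without ISOGK-treated mouse 1 and was also called without vehicle-treated mouse 2.

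*Wee1*, a kinase that holds cells back from mitosis by phosphorylating CDK1, lies on chromosome 7 from 110122046 to 110143286 (GRCm38, plus strand). Its levels were 2.81, 1.74, 4.63 and 1.79 CPM with vehicle and 2.21, 1.74, 2.94 and 3.35 CPM with ISOGK. The groups overlapped almost fully, and the log2 fold change of -0.11 had a 95% interval from -0.83 to 0.62 (edgeR adjusted p = 0.881). Without ISOGK-treated mouse 1 it was -0.04 (edgeR adjusted p = 0.966). Of 10 listed cell cycle partners of *Wee1*, 6 were expressed enough to be tested and 0 were called (edgeR), with 0 at an unadjusted p under 0.05 and 0 called by DESeq2 or limma-voom. The group means of these 6 genes lay between 0.456 and 4.12 CPM, most of them at the low end, so a change in them could be missed.

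**Figure D3:**
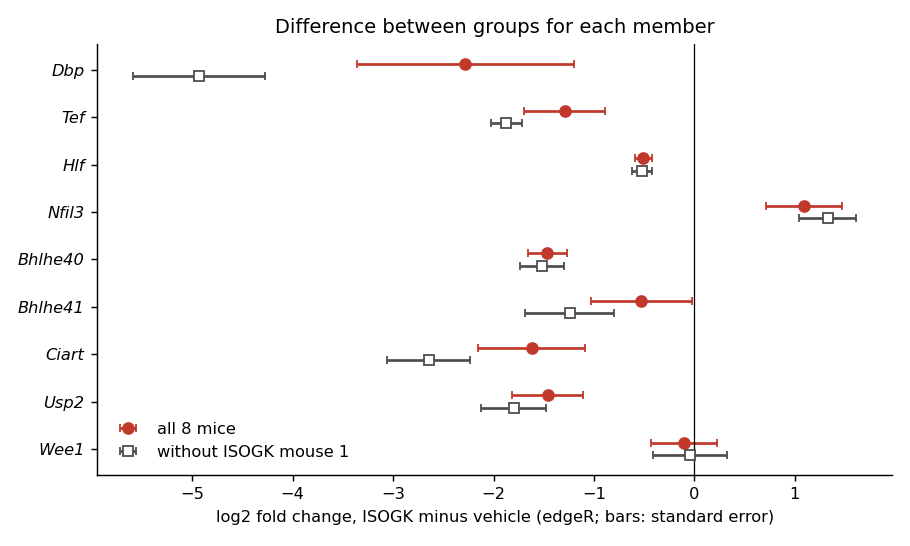
Log2 fold change of each clock output factor, ISOGK minus vehicle, from edgeR with all 8 mice (circles) and without ISOGK-treated mouse 1 (squares), with bars for the standard error. Without that mouse *Dbp* moves from -2.28 to -4.93 and *Ciart* from -1.62 to -2.65, while *Hlf* stays at -0.51 and -0.52 and *Bhlhe40* at -1.47 and -1.52.

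The mice also varied within the vehicle group. Vehicle-treated mouse 3 had the highest vehicle level of 7 of 9 members (*Dbp*, *Tef*, *Bhlhe40*, *Bhlhe41*, *Ciart*, *Usp2* and *Wee1*) and the lowest of *Nfil3*. On the per-length scale the members ranked, from the highest vehicle mean down, *Bhlhe40* (43.7), *Tef* (28.1), *Nfil3* (19.2), *Hlf* (12.8), *Dbp* (12.4), *Usp2* (5.80), *Ciart* (2.48), *Wee1* (1.98) and *Bhlhe41* (0.561). The vehicle ranges of neighbours in this order overlapped, except between *Usp2* and *Ciart* and between *Wee1* and *Bhlhe41*. With ISOGK, *Nfil3* came first at 37.1, followed by *Bhlhe40* at 13.9, *Tef* at 10.04 and *Hlf* at 7.95. The ISOGK ranges of *Nfil3* (17.0 to 62.1) and *Bhlhe40* (12.5 to 15.5) did not overlap, while that of *Tef* (5.62 to 19.7) overlapped both and that of *Hlf* (7.18 to 8.80). In ISOGK-treated mouse 1 the order was *Tef* (19.7), *Nfil3* (17.0) and *Bhlhe40* (15.1).

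Members were compared for how they deviated together from mouse to mouse after each group's mean was removed (log2 CPM, 8 mice). Of 36 pairs, 13 had a Pearson r over 0.5 and 6 had r under -0.5. The share of such pairs among all genes was not computed, so these counts do not show that members vary together more than other genes. For scale, *Upp2*, at r = 0.56 with *Dbp*, ranked 1024 of 12306 genes. *Dbp* and *Tef* deviated together, with r = 0.95 and Spearman's rho = 0.83, but r was 0.47 without ISOGK-treated mouse 1 and vehicle-treated mouse 3. The values without these 2 mice, here and below, keep the group means taken over all 8 mice. They are thus not free of the mice left out, and how far a relation rests on those mice cannot be told from them. *Dbp* and *Nfil3* deviated in opposite directions (r = -0.82, rho = -0.62), with r = -0.24 without the same 2 mice. Among all other tested genes, those most like *Dbp* were *Dclre1c* (r = 0.99, rho = 0.95, and r = 0.93 without the 2 mice), *Pitpnm2* (0.99, 0.95 and 0.95), *Irf5* (0.98, 0.95 and 0.92), *Onecut1* (0.96, 0.79 and 0.71) and *Chek2* (0.96, 0.98 and 0.67). The 5 most opposite were *Desi2*, *Supt20*, *Nfe2l1*, *Selenoi* and *Gadd45b*, with r between -0.98 and -0.96. *Tef* ranked 7 of 12306 in likeness to *Dbp*, and *Per3* 45 (r = 0.89), but r for *Per3* was -0.01 without the 2 mice. The points share the same libraries and ISOGK-treated mouse 1 is far from the others, so these are descriptions without a test.

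The sequence upstream of the members was searched for the letters of 4 clock elements on both strands, from 250 bases before to 50 bases after each annotated start (RefSeq, GRCm38.p6): the E-box CACGTG, its variant CACGTT, the D-box as TTATGTAA or TTACGTAA, and the ROR element TAGGTCA. The reference held such windows for 7 of 9 members, all but *Bhlhe40* and *Wee1*. One window for each member with a match is printed here as the 250 bases before the start, read 5′ to 3′ on the gene's strand, with matches in capitals, together with *Per3*, a core clock gene whose window held the D-box.
Ciart: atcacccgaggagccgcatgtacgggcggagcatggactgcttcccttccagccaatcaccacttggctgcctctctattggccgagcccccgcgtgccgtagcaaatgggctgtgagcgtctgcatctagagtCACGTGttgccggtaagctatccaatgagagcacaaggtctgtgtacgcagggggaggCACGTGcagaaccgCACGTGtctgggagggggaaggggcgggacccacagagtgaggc
Tef: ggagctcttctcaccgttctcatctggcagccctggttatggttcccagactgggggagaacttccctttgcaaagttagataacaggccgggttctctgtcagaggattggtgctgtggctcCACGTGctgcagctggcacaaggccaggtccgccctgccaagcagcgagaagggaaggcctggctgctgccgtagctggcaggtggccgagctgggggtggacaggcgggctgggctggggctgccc
Bhlhe41: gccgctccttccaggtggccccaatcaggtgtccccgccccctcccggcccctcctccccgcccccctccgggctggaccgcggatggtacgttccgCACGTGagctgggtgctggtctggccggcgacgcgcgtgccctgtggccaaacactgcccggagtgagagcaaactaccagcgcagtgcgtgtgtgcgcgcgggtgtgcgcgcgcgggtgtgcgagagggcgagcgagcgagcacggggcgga
Nfil3: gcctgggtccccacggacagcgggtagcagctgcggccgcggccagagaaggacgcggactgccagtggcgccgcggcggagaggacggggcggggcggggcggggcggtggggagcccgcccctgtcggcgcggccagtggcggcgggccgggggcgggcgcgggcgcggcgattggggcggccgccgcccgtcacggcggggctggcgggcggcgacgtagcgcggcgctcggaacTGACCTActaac
Per3: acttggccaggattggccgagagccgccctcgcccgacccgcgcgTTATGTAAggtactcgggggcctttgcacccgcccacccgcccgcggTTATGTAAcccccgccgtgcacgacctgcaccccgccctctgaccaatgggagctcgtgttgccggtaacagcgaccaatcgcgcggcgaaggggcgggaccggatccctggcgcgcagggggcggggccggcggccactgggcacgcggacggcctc
The *Ciart* window (chr3:95882229-95882478, minus strand) held 3 E-boxes, 116, 58 and 44 bases before the start, a number reached in 29 of 32851 promoter windows (0.0883%). The *Tef* window (chr15:81802423-81802672, plus strand) held an E-box 127 bases before the start, and a second annotated *Tef* start had one at 138 bases. *Bhlhe41* (chr6:145865421-145865670, minus strand) had an E-box at 153 bases, and 7.15% of all windows hold at least 1. In *Nfil3* (chr13:52981040-52981289, minus strand) the ROR element lay 12 bases before the start and reads TGACCTA, its reverse complement, in a motif held by 2.61% of windows. *Per3* (chr4:151044666-151044915, minus strand) had D-boxes 205 and 158 bases before the start, an element held by 1.06% of windows. None of these letters occurred in the windows of *Dbp*, *Hlf* and *Usp2*. The only *Usp2* window (chr9:44084670-44084969, plus strand) lay inside the annotated gene, which starts at 44067021, so the sequence before that start was not searched. A match is a run of letters and not a measured binding site.

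The core clock genes, which drive these outputs, also set ISOGK-treated mouse 1 apart from the other treated mice. Of 15 listed core clock genes, 0 were called by edgeR with all 8 mice, 6 had an unadjusted p under 0.05, and DESeq2 called 4 and limma-voom 2. Over all 12307 genes, edgeR called 7.55%, DESeq2 11.7% and limma-voom 7.09%, and 2973 genes had an unadjusted p under 0.05. The median log2 fold change of the core clock genes was -0.02. *Nr1d1*, which encodes the repressor REV-ERBα, was at 58.3, 82.6, 56.6 and 71.3 CPM with vehicle and at 64.9, 9.87, 16.5 and 3.56 CPM with ISOGK, with mouse 1 again inside the vehicle range. *Arntl*, which REV-ERBα represses, was at 12.9, 16.6, 5.61 and 13.8 CPM against 13.9, 38.4, 30.9 and 25.6 CPM. *Per3* was at 2.16, 2.25, 6.31 and 2.23 CPM against 2.50, 0.581, 0.622 and 0.419 CPM. For 8 of the 15 core clock genes the other 3 ISOGK-treated mice lay clear of all vehicle-treated mice, and in 7 of these 8 mouse 1 did not. All tested genes gave 2656 of 12307 clear and 29.2% of these with mouse 1 not clear. As for the members, this count does not measure how unusual mouse 1 was. It is also not independent of the members on which this mouse was singled out. Without that mouse, where 7.93% of all genes were called, edgeR called *Arntl*, *Npas2* and *Cry1* higher (log2 fold changes 1.37, 1.92 and 0.95, adjusted p = 0.0418, 0.0019 and 0.00631). It called *Nr1d1*, *Nr1d2*, *Per3* and *Cry2* lower (-2.76, -1.79, -2.58 and -0.68, adjusted p = 0.0186, 0.000203, 0.0108 and 0.0216).

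**Figure D4:**
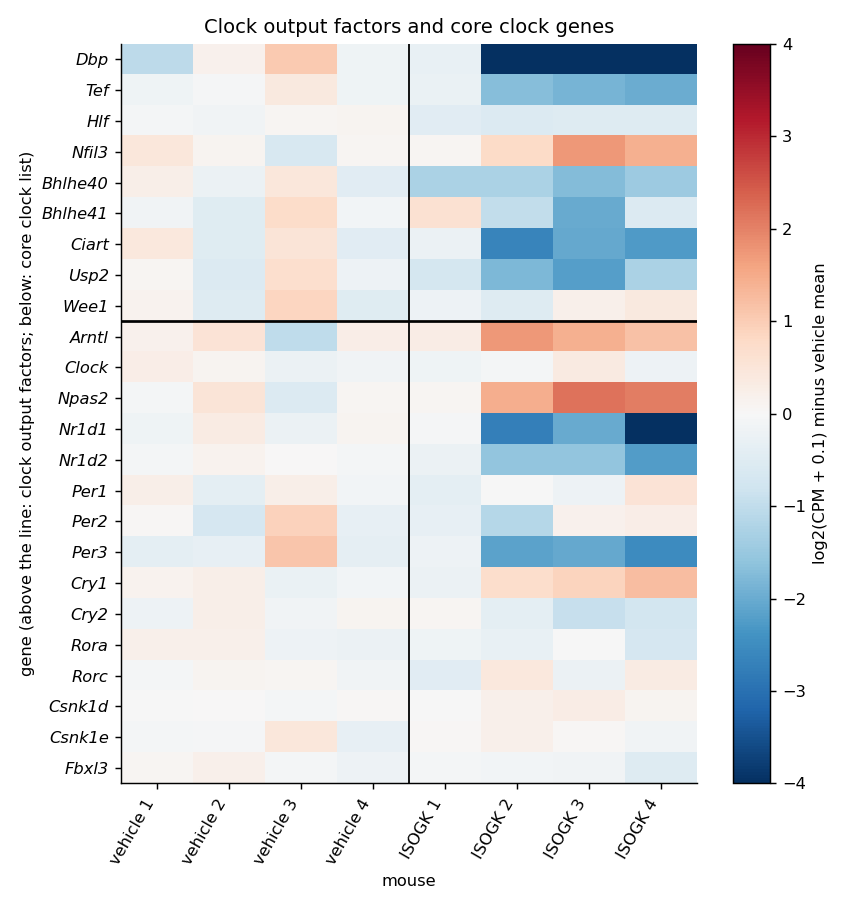
Level of the 9 clock output factors (above the horizontal line) and the 15 core clock genes (below) in each mouse, as log2(CPM + 0.1) minus the mean of the 4 vehicle-treated mice, with colours clipped at -4 and 4. ISOGK-treated mice 2, 3 and 4 are blue for *Dbp*, *Tef*, *Ciart*, *Nr1d1* and *Per3* and red for *Nfil3*, *Arntl* and *Npas2*, and ISOGK-treated mouse 1 is pale for these genes. *Bhlhe40* is blue in all 4 ISOGK-treated mice, and *Hlf*, with a small difference on this scale, is only faintly blue in all 4.

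Of 16 listed genes reported as targets of the PAR bZIP factors or NFIL3, 15 were tested, 2 rose and 2 fell (edgeR, adjusted p under 0.05), with a median log2 fold change of -0.30, where 4.11% of all tested genes rose and 3.44% fell. DESeq2 called 8 of them (3 higher and 5 lower), where it called 11.7% of all genes. With edgeR, 2 were called without vehicle-treated mouse 2, vehicle-treated mouse 4 or ISOGK-treated mouse 4, where 379, 550 and 679 genes were called in all. *Fgf21*, a hepatokine that NFIL3 is reported to repress, was at 0.712 to 1.597 CPM in the vehicle-treated mice and rose to 5.05, 12.2, 7.75 and 13.4 CPM in the ISOGK-treated mice (log2 fold change 2.99, standard error 0.34, edgeR adjusted p = 0.00122). *Lpl*, lipoprotein lipase, fell to 56.9, 39.7, 50.9 and 28.3 CPM from 81.3 to 96.0 CPM (log2 fold change -0.995, standard error 0.18, edgeR adjusted p = 0.00951). In both genes ISOGK-treated mouse 1 was the treated mouse nearest to the vehicle range and still outside it. *Cyp2a5*, a cytochrome P450 driven by DBP, fell by 1.18 and *Nr1i3*, the receptor CAR, rose by 0.45 on the log2 scale (standard errors 0.28 and 0.12, edgeR adjusted p = 0.0376 and 0.0415), but each call was lost in 8 of 17 alternative fits. Without ISOGK-treated mouse 1 the log2 fold changes were 3.21 for *Fgf21*, -1.15 for *Lpl*, -1.49 for *Cyp2a5* and 0.49 for *Nr1i3* (edgeR adjusted p = 0.000116, 0.00353, 0.00183 and 0.0445). Reads of *Cyp2a5* could be shared with its close copy *Cyp2a4*.

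Of 15 other genes with a daily rhythm in liver, 4 rose and 0 fell with edgeR (4.11% and 3.44% of all tested genes), 8 had an unadjusted p under 0.05, and the median log2 fold change was 0.11. DESeq2, limma-voom and edgeR without its robust option each called 8, of which 6 were higher and 2 lower. Over all 12307 genes these fits called 1435, 872 and 912, and 2973 had an unadjusted p under 0.05 in the main edgeR fit. The RNA-binding proteins *Rbm3* and *Cirbp*, both known to be induced by mild cold, had log2 fold changes of 1.58 and 1.24 (standard errors 0.25 and 0.26, edgeR adjusted p = 0.00827 and 0.0175). *Lonrf3* rose by 1.30 and the chaperone gene *Hspa8* by 0.57 (standard errors 0.25 and 0.13, edgeR adjusted p = 0.00965 and 0.0262). The call on *Hspa8* was lost in 4 of 17 alternative fits, among them those without vehicle-treated mouse 2 or 4 (edgeR adjusted p = 0.0857 and 0.0728), and that on *Cirbp* in 1, without vehicle-treated mouse 3 (edgeR adjusted p = 0.0554). Without ISOGK-treated mouse 1 the log2 fold changes of *Rbm3*, *Cirbp*, *Lonrf3* and *Hspa8* were 1.60, 1.21, 1.47 and 0.57, each called by edgeR. In *Rbm3* the 4 treated mice were at 70.9, 81.1, 49.5 and 95.04 CPM, and the highest vehicle-treated mouse was at 37.0, so ISOGK-treated mouse 1 did not stand apart here. That mouse also lay among the other treated mice for *Cirbp* and *Hspa8*. For *Lonrf3* it was the treated mouse nearest to the vehicle range, at 1.96 CPM against 3.00 to 4.01 in the others.

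Genes that respond to feeding and fasting were listed because many liver rhythms follow food intake. Of 11 listed, 10 were tested, 3 rose and 2 fell (edgeR, adjusted p under 0.05), where 4.11% of all tested genes rose and 3.44% fell. *Pdk4*, *Fgf21* and *Angptl4*, which are raised by fasting, had log2 fold changes of 2.16, 2.99 and 0.57 (edgeR adjusted p = 0.00547, 0.00122 and 0.0482), and the call on *Angptl4* was lost in 11 of 17 alternative fits. *Srebf1*, which is raised by feeding, fell by 1.60 on the log2 scale (edgeR adjusted p = 0.00592), from 47.7, 67.9, 81.5 and 78.7 CPM with vehicle to 20.6, 33.99, 16.8 and 19.3 CPM with ISOGK. For *Srebf1*, ISOGK-treated mouse 1 was among the other treated mice. For *Pdk4* it was the treated mouse nearest to the vehicle range (16.5 CPM, against 29.5 to 49.3 in the others). For *Angptl4* it lay inside the vehicle range, at 172 CPM where the vehicle-treated mice had 116 to 183. Without ISOGK-treated mouse 1 the log2 fold changes of *Pdk4*, *Angptl4* and *Srebf1* were 2.39, 0.68 and -1.56, each called by edgeR. Of 10 glucocorticoid response genes and 9 immediate early genes, 0 of each were called by edgeR, with 2 and 1 at an unadjusted p under 0.05, while DESeq2 called 2 and 0 and limma-voom 0 and 0. Over all 12307 genes, 2973 had an unadjusted p under 0.05, and edgeR called 7.55%, DESeq2 11.7% and limma-voom 7.09%.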

How the data were processed

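Liver RNA was sequenced from 4 vehicle-treated and 4 ISOGK-treated *Apoe*-/- mice, and each library took its group and number from its deposited label. Count columns bearing the name DMSO were assigned to the vehicle group because the study gives DMSO as its solvent control. The authors aligned single-end reads with HISAT2 2.0.5 (mm10, per the labels) and counted them per gene with StringTie 1.3.3b, and the deposited values are these whole-number counts for 16540 symbols, without normalization. Use of strand in counting is not given in the sources used here.

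Low counts were removed with filterByExpr (minimum count of 10, minimum total of 15), normalized with TMM and tested with the robust quasi-likelihood test of edgeR 4.0.16 in R 4.3.3, with Benjamini-Hochberg adjustment over 12307 genes and a threshold of 0.05. CPM carry TMM factors, and log2 CPM have a prior count of 2. Whether the mice shared litters or cages is not given in the sources used here, so p-values measure the spread between these mice. Alternatives were DESeq2 1.42.0, limma-voom (limma 3.58.1), edgeR scaled with the size factors of DESeq2 or with library size only, all genes with at least 1 count, at least 10 counts in every library, no robust option, a replicate block, each mouse left out and, added after the data had been seen, vehicle-treated mouse 4 and ISOGK-treated mouse 1 left out together. The methods were tested on simulated counts with the same spread for every gene and no mouse set apart. That test therefore does not cover members with a wide or uneven spread, such as *Dbp*. Exonic lengths and positions are from GENCODE M21 (GRCm38), which matched 16211 of 16540 symbols.

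The 9 members and all gene lists were chosen with earlier results of these data known. Some genes are on several lists (*Per3* and *Cry1* as core clock genes and as PAR bZIP or NFIL3 targets, *Fgf21* as such a target and as a feeding response gene). The counts of the lists are therefore not independent. Named genes were the 9 members, up to 5 called genes with the smallest p in each other list, and the 5 genes most like and most unlike *Dbp*, with 1 gene under this rule not reported here; *Sphk2*, *Apoe* and the core clock genes given without ISOGK-treated mouse 1 were named after their values had been seen. Libraries of the same group differed by a chi-square of 18.1 to 99.6 per gene, so none was a duplicate.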

Additional observations from a re-analysis of the deposited data

Results flagged for a closer look

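In 4 of the 5 cases below, ISOGK-treated mouse 1 lay far from the other 3 ISOGK-treated mice, measured as its gap to the nearest mouse divided by the range of the group. Values above Dixon's 95% critical value for 4 mice were taken as unusual. This share of the range was 0.969 for *Dbp* (10.5 CPM, against 0.369 to 0.681 in the others), 0.907 for *Tef* (72.8 CPM, against 22.3 to 27.0), 0.878 for *Ciart* (1.81 CPM, against 0.264 to 0.452) and 0.903 for *Per3* (2.50 CPM, against 0.419 to 0.622). The fifth case was *Per3* in vehicle-treated mouse 3, at 0.977 (6.31 CPM, where the other 3 had 2.16 to 2.25). For independent groups of normal values, 2.4 such cases would be expected in the 48 groups of 4 examined, which were the members and core clock genes in each treatment group. These groups share the same 8 libraries and some of their genes vary together (*Dbp* and *Tef*, r = 0.95). The 5 cases are therefore not independent, and their number against 2.4 is not a test.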

How the results depend on the processing

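*Hlf* and *Bhlhe40* kept direction and call in all 17 alternative fits run for them, with log2 fold changes from -0.64 to -0.47 and from -1.65 to -1.30, although *Hlf* does not pass when an absolute log2 fold change over 1 is also required (2 of 9 members then, *Bhlhe40* and *Usp2*, against 0.626% of all genes). DESeq2 called 5 members, limma-voom 6 and edgeR without vehicle-treated mouse 4 and ISOGK-treated mouse 1 called 6 (5.44%, 3.34% and 2.55% of all genes lower). Leaving out each mouse in turn gave 2 to 7 members, the 7 being without ISOGK-treated mouse 1, where 7.93% of all genes were called. The value of *Wee1* ranged from -0.27 to 0.28 with a mouse left out and reversed to 0.28 without vehicle-treated mouse 3 and 0.04 without ISOGK-treated mouse 2, uncalled in both. The cause of these shifts was not tested.

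For core clock genes (0 called), DESeq2 called 4, limma-voom 2, edgeR without the robust option 1 and without both mice 4, and leaving out each mouse gave 0 to 7, the 7 again without ISOGK-treated mouse 1. For PAR bZIP and NFIL3 targets (4 called), DESeq2 called 8 and leaving out each mouse gave 2 to 6, with 2 without vehicle-treated mouse 2, vehicle-treated mouse 4 or ISOGK-treated mouse 4. For other rhythmic genes (4 called), DESeq2, limma-voom and edgeR without the robust option each called 8, with 6 higher and 2 lower. For glucocorticoid response genes (0 called), DESeq2 called 2, and leaving out each mouse gave 0 to 1, with 1 without vehicle-treated mouse 1. Library size alone called 1 immediate early gene and shifted all genes by a median of -0.13 (log2), with 262 genes higher and 804 lower, where TMM gave 506 and 423. With a mouse left out, counts over all genes went from 379 (without vehicle-treated mouse 2) to 1235 (without ISOGK-treated mouse 3), against 929 in the main fit. Over all genes DESeq2 called 1435, limma-voom 872, edgeR without the robust option 912 and edgeR without both mice 650.

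Mice with the same replicate number did not deviate together over all genes (correlations 0.013, -0.014, 0.075 and 0.085, with the best match being the own number for 1 of 4). Whether they shared anything beyond the number cannot be told from this. The replicate block gave 827 calls over all genes and 3 members, with *Ciart* (edgeR adjusted p = 0.0239) in place of *Usp2* (0.0622), and 1 glucocorticoid response gene. A minimum of 10 counts in every library left *Dbp*, *Bhlhe41* and *Ciart* untested.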

Other observations

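Some genes outside the called ones are given here, and they were picked after their values had been seen. *Onecut1* and *Chek2* varied with *Dbp* from mouse to mouse. *Onecut1*, which encodes the hepatocyte transcription factor HNF6, was at 14.9, 23.9, 40.4 and 23.0 CPM in vehicle-treated mice 1 to 4 and at 23.4, 5.44, 5.48 and 4.56 CPM in ISOGK-treated mice 1 to 4. As for *Dbp*, only ISOGK-treated mouse 1 lay inside the vehicle range and vehicle-treated mouse 3 was the highest (log2 fold change -1.39, edgeR adjusted p = 0.224). *Chek2*, a checkpoint kinase, was at 1.46, 1.54, 1.83 and 1.47 CPM against 1.28, 0.528, 0.679 and 0.681 CPM, where ISOGK-treated mouse 1 was again the highest treated mouse (log2 fold change -0.98, edgeR adjusted p = 0.0656). *Upp2*, a uridine phosphorylase with a daily rhythm in liver, was at 200.2, 242, 204 and 201 CPM against 123, 63.0, 35.9 and 11.9 CPM. Its groups did not overlap, and its log2 fold change was -1.86 (edgeR adjusted p = 0.136). *Upp2* varied less closely with *Dbp* (r = 0.56, rank 1024 of 12306).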
